A study of Rattus with 9 samples.

Results

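The trefoil factors Tff2 and Tff3, the secretory chaperone Agr2, the membrane mucin Muc1, the gastrokine Gkn3, the lectin Reg3g, the immunoglobulin receptor Pigr and the chloride channel regulator Clca5 are 8 genes of mucosal defense, out of 23836 gene symbols counted in single cells of the rat bile duct. They were chosen by their levels in biliary epithelial cells (BEC) and by how those levels differed between groups in these same data. Their levels are therefore described below without a test, and tests are given only for other genes of the same pathways. Bile ducts came from 3 sham-operated rat samples, from 3 samples after liver transplantation (LT) with ischemic injury, and from 3 samples after the same LT in which the splenic and gastroduodenal arteries were also ligated to raise arterial flow. The LT samples are called ctrl and the ligated ones treat, and each arm holds 1 sample at day 1, 1 at day 3 and 1 at day 7 post-LT. No genetic alteration is given for any group.

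The bile duct is lined by a single layer of columnar epithelium that meets bile, and at times microbes, on its free side. A mucosal surface of this kind is guarded by mucus, by secreted proteins that bind or kill bacteria, and by antibodies carried through the epithelial cell into the lumen. Mucins form the gel and the cell coat, trefoil factors and gastrokines are secreted with the mucus, protein disulfide isomerases such as Agr2 fold mucins in the endoplasmic reticulum, Reg3 lectins bind bacterial peptidoglycan, and Pigr carries polymeric IgA from the tissue side to the lumen.

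The series held 20 libraries of 3′ single-cell RNA-seq, 1 for each sham sample and 3 for each LT sample except treat day 3, for which 2 were analysed. Total UMI counts, which number the RNA molecules after removal of PCR copies, were 14398295 to 109245177 per library. Nothing in the labels tells if libraries of 1 sample, or samples of 1 group, are from different rats, so p-values measure only the spread between these samples, which may be technical. After filtering, 139637 cells remained, and 20618 of them (14.8%), in 3 of 42 clusters, had the markers of BEC. All 12 BEC markers had UMIs in the BEC-like cells of every sample, but so did all 6 fibroblast markers, so this alone does not identify the cells. Krt19, a keratin of bile duct cells, was at 128 to 256 CPM (counts per 1000000 UMIs) against 2.90 CPM in all other cells. The marker Anxa4 was less far apart, at 429 to 692 against 120 CPM. A sample held 457 to 4352 BEC-like cells with 3345281 to 55052259 UMIs in all. Ctrl day 3 rested on 1 library, which gave 659 of its 723 BEC-like cells. Library 2 of treat day 7 stood apart from the others of its sample, with Tff3 at 204 and Gkn3 at 37.9 scaled CPM, and without it the fitted difference of treat from ctrl was log2 -0.40 for Tff3, 0.67 for Agr2, 1.26 for Gkn3, -0.27 for Reg3g and 0.46 for Pigr. Any 2 libraries of the same sample shared at most 37 cell barcodes, and any 2 of different samples at most 52.

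Across the named cell types of the duct, BEC-like cells held most of the UMIs of each of the 8 genes. Their share of all UMIs in kept cells was 97.4% for Clca5, 96.2% for Gkn3, 95.7% for Pigr, 93.7% for Reg3g, 93.5% for Muc1, 91.4% for Agr2, 90.5% for Tff3 and 85.9% for Tff2. Since the genes were picked for epithelium, this pattern describes the choice and is no test of it. An unnamed cluster of 3787 cells with few UMIs, a median of 1489 per cell, held 7.13% of Tff3, 6.77% of Agr2 and 4.78% of Reg3g UMIs. That cluster was not given a name because its 10 leading genes held more markers of acinar cells (Cela1) than of BEC. Its share was uneven between samples, at 19.7% of Tff3, 11.5% of Agr2 and 10.0% of Reg3g UMIs in treat day 1 against 5.62%, 6.59% and 2.93% in ctrl day 1. In CPM its levels pooled over all samples were 7766 for Tff3 and 3104 for Agr2, and treat day 1 gave 2011 of its 3787 cells. By sample the cluster ran from 962 to 28362 CPM for Tff3 and from 345 to 4890 CPM for Agr2. These ranges overlapped those of BEC-like cells, 1484 to 5959 and 545 to 2652 CPM. Reg3g was at 15045 CPM pooled and at 1060 to 19112 CPM by sample, beside the BEC-like range of 2241 to 20802. Pooled Muc1 was at 101 CPM and Pigr at 34.4 CPM.

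Tff2, a trefoil peptide of mucous neck and gland cells, was the only member whose median was higher in another cell type. In the 2 samples with at least 20 acinar-like cells, sham 2 and sham 3, Tff2 was at 1790 and 76.1 CPM in those cells. BEC-like cells ranged from 1.20 to 186 CPM over the 9 samples, with a median of 14.8 CPM. In sham 2, acinar-like cells held 71.6% of the sample's Tff2 UMIs and BEC-like cells 8.52%, whereas in sham 3 acinar-like cells held 4.58%, BEC-like cells 21.2% and other cells most of the rest.

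The acinar-like cells, 142 and 158 in number, were a mixed class, and few of them carried Tff2, 10.6% and 9.49%. A finer clustering of all cells had an acinar-like cluster of 64 cells with Tff2 at 1807, Tff3 at 347 and Agr2 at 139 CPM, another of 273 cells with Tff2 at 21.1, Tff3 at 3427 and Agr2 at 1307 CPM, and one of 544 cells, led by the lymphocyte gene Xcl1, with Tff2 at 16.1 CPM. Over the whole class Tff3 was at 1292 and 2949 CPM, within or just below its range of 1484 to 5959 CPM in BEC-like cells. Agr2 was at 718 and 1048 CPM, Gkn3 at 325 and 194 CPM and Reg3g at 967 and 4235 CPM. Their median depth was 1226 and 1331 UMIs per cell, and whether duct cells or free RNA contributed to these counts was not tested.

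Muc1, a transmembrane mucin of the apical cell coat, was also present in tuft-like cells, the chemosensory cells of epithelia. Its level was 128 to 404 CPM there (median 337) and 189 to 560 CPM in BEC-like cells (median 376), so the ranges overlapped. Clca5, of the family of regulators of calcium-activated chloride channels, was at 20.8 to 456 CPM in tuft-like and 120 to 871 CPM in BEC-like cells. Pigr ranged from 7.57 to 76.8 CPM in tuft-like cells and from 38.3 to 313 CPM in BEC-like cells. Tuft-like cells are epithelial as well, and numbered 67 to 787 per sample.

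In EC, stromal and immune cells the 8 genes were low in CPM, the highest median being 133 CPM, for Reg3g in neutrophil-like cells. Reg3g, the C-type lectin that binds Gram-positive bacteria, was the gene with the most UMIs elsewhere, and a UMI of it was found in 4.26% to 54.4% of endothelial (EC)-like cells (median 9.06%), whose median depth was 2306 to 5585 UMIs per cell. In BEC-like cells, with median depths of 3897 to 11210 UMIs, the share was 30.0% to 94.7%. The shares of EC-like cells and of most other stromal and immune types overlapped that range. They reached 86.9% in fibroblast-like cells, with median depths of 5681 to 23650 UMIs, 74.4% in vascular smooth muscle (VSMC)-like cells and 49.3% in NK&T-like cells, where the CPM of Reg3g reached 99.1, 209 and 431. Tff3 was likewise detected in 17.4% to 54.9% of fibroblast-like cells, at 25.4 to 59.5 CPM, and Agr2 in 1.17% to 30.3% of them. Agr2 was also detected in 32.2% and 30.2% of plasma-like cells in ctrl day 7 and treat day 7, at 37.0 and 36.6 CPM. The part of free RNA in the counts of these cells was not tested, and they are not read as expression here. For Muc1 the shares were 0% to 1.89% in EC-like and 69.5% to 85.1% in BEC-like cells. Pigr was detected in 0.104% to 0.773% of macrophage-like cells and in 28.9% to 65.6% of BEC-like cells. The shares of Tff2, 0% to 3.96% in EC-like and 0.656% to 4.08% in BEC-like cells, did not separate these cell types.

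**Figure D1:**
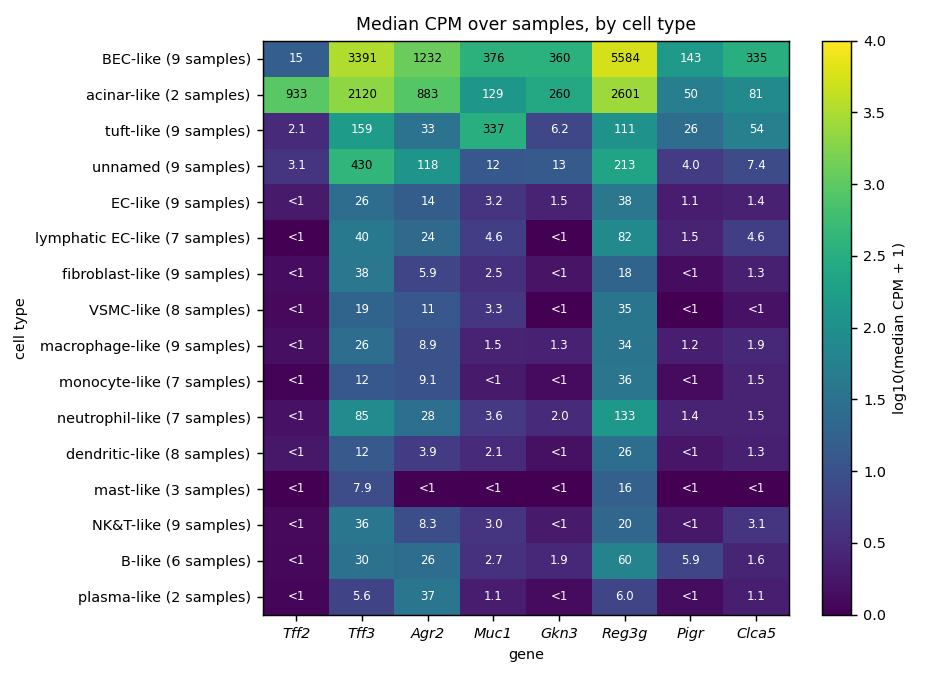
Median CPM over samples of each of the 8 genes (columns) in each named cell type (the horizontal bands), printed in each cell and coloured by log10(median CPM + 1), with the number of samples that held at least 20 cells of the type. BEC-like cells have the highest median for 7 genes, and acinar-like cells for Tff2 (933 against 14.8 CPM).

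Levels in BEC-like cells of each sample are given from here on as scaled CPM, that is CPM of the UMIs summed over those cells with the library size adjusted by TMM, edgeR's trimmed mean of M values. Error is the SD over the 3 samples of an arm, where the 3 days post-LT serve as replicates, and the fitted log2 difference carries its standard error (SE). In such sums, fewer cells carrying a gene and less of its RNA in each cell cannot be told apart. The BEC-like clusters also differed in number between groups. Cluster 2, led by Sectm1b, Clca5, Gkn3, Ubd and Mmp7, held 1.94% to 7.22% of sham BEC-like cells but 89.5% of those of ctrl day 7 and 93.8% of those of treat day 7. Clusters 7 (led by Reg3b, Akr1c15, Reg3g, Agr2 and Aqp5) and 11 (led by Wfdc21, Lypd8, Upk3bl1, Duoxa2 and LOC100909857) held most of the sham and day 1 cells. On day 3 the LT arms differed, cluster 2 holding 237 of 723 BEC-like cells in ctrl and 2212 of 2620 in treat. Cluster 11 held 327 and 180 of them. Levels are therefore also given within clusters below. The part of cluster makeup in the differences of treat from ctrl was not tested.

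Tff3, the trefoil peptide of goblet cells and bile ducts, was at 1246, 2379 and 2657 scaled CPM in sham 1, 2 and 3. In ctrl it was at 6656, 6111 and 3495 scaled CPM on days 1, 3 and 7. By sample the arms did not overlap. Their means were 2094 ± 747 (SD, n = 3) in sham and 5421 ± 1690 (SD, n = 3) in ctrl, 2.57-fold apart in the fit (log2 1.36, SE 0.38). The libraries of ctrl day 7 were at 5049, 3810 and 1554 scaled CPM, library 3 lying below sham 2 and 3. Treat was at 3712, 5266 and 2269 scaled CPM, below ctrl on each day, by 0.84, 0.21 and 0.62 on the log2 scale. On treat day 1 BEC-like cells held 76.5% of the sample's Tff3 UMIs, against 93.6% on ctrl day 1, the unnamed cluster holding most of the rest. Within each day, however, the libraries of the arms overlapped for Tff3, and the treat day 7 libraries alone ran from 204 to 3655 scaled CPM.

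Tff2 was at 1.00, 4.53 and 5.19 scaled CPM in sham, at 75.5, 191 and 14.7 in ctrl and at 16.2, 68.9 and 43.7 in treat, by day. All 6 LT samples thus lay above all 3 sham samples, but single libraries did not. Those of ctrl day 7 were at 26.4, 2.09 and 2.46 scaled CPM, libraries 2 and 3 lying below sham 2 and 3. Library 2 of ctrl day 3, with only 22 BEC-like cells, was at 0. The fitted difference of ctrl from sham was log2 4.54 (SE 0.95). This difference rested on few UMIs in sham (4, 65 and 102). The free-RNA profile of nearly empty droplets predicted at least as many Tff2 UMIs as were counted in each sham sample, a share capped at 100%. In LT samples the share was 0.233% to 2.97%. In sham 2 and 3, however, a single cell held 23.1% and 31.4% of the Tff2 UMIs, both of them Gkn3-rich cells as defined below. The fitted difference was log2 1.07 without cluster 7, the one with Scgb1c1 among its 10 leading genes. It was 3.47 with BEC-like cells taken by a gate on single cells and 1.29 with that gate and doublets kept. With the hemoglobin limit dropped as well it was 1.23. It also rested on few cells. BEC-like cells with at least 10 Tff2 UMIs numbered 0, 1 and 1 in sham, 22, 9 and 5 in ctrl and 9, 20 and 11 in treat, and in the LT samples they held 77.1% to 99.0% of all Tff2 UMIs. A single cell held 1017 of the 1620 Tff2 UMIs of ctrl day 3. Treat was below ctrl on days 1 and 3 (log2 -2.22 and -1.47) and above it on day 7 (log2 1.57). The treat day 7 libraries were at 14.3, 0.103 and 103 scaled CPM, and only library 3 lay above the ctrl day 7 sample. Day 1 was the only day on which the libraries of the arms did not overlap, at 56.0 to 90.3 in ctrl and 13.3 to 18.3 scaled CPM in treat.

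Agr2, the endoplasmic reticulum disulfide isomerase needed for mucin folding, was at 868, 702 and 516 scaled CPM in sham. In ctrl it was at 2494, 1710 and 682 scaled CPM, so days 1 and 3 lay above all sham samples and day 7 lay among them. The fitted difference was log2 1.21 (SE 0.45). Treat was at 2611, 2855 and 1149 scaled CPM, above ctrl on each day by log2 0.07, 0.74 and 0.75. In ctrl day 3 library 1, with 659 BEC-like cells, was at 1375 scaled CPM. Libraries 2 and 3 were at 293 and 6747 scaled CPM but held only 22 and 42 such cells. Without library 1 of that sample, which leaves ctrl day 3 resting on those few cells, the fitted difference of ctrl from sham was log2 1.81. That of treat from ctrl was then 0.09 in place of 0.51.

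Gkn3, a member of the gastrokine family of secreted stomach mucosal proteins, was at 381, 277 and 126 scaled CPM in sham and at 257, 375 and 290 in ctrl. These groups overlapped and the fitted difference was log2 0.23 (SE 0.38). In treat it was at 394, 1471 and 484 scaled CPM, above ctrl on each day by log2 0.61, 1.97 and 0.74 (fitted 1.09, SE 0.30). On day 3 the treat libraries, at 1452 and 1488 scaled CPM, lay above the 3 ctrl libraries, at 106 to 396. On that day cluster 2, with Gkn3 among its leading genes, held 2212 of 2620 BEC-like cells in treat and 237 of 723 in ctrl. Cluster 11, the lowest in Gkn3, held 180 and 327, and the part of this makeup in the difference was not tested. On days 1 and 7 the libraries of the arms overlapped, and treat day 7 ran from 37.9 to 1053 scaled CPM. The fitted difference was log2 0.52 without library 3 of treat day 7, 0.65 without day 3 of ctrl, 0.68 without day 3 of treat and 1.63 without library 1 of ctrl day 7.

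Muc1 had the smallest fitted difference of ctrl from sham among the 8 genes, log2 0.10 (SE 0.33), but it was -0.60 without cluster 7, where Gkn3 (0.27) and Clca5 (0.38) were closer to 0. It was at 470, 296 and 281 scaled CPM in sham, at 226, 452 and 448 in ctrl and at 314, 405 and 398 in treat. The arm means were 349 ± 105, 375 ± 129 and 372 ± 51.1 (SD, n = 3 each), differences smaller than the spread within arms. Its lowest value was on ctrl day 1.

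Clca5 was at 281, 377 and 308 scaled CPM in sham, at 144, 486 and 869 in ctrl and at 214, 260 and 529 in treat. Both LT arms had their lowest value on day 1, below all sham samples, and their highest on day 7, above all of them. Ctrl exceeded treat on days 3 and 7 by 0.90 and 0.72 on the log2 scale and was lower on day 1. The ctrl day 7 value came from libraries at 38.3 to 1340 scaled CPM. Without its library 1 the fitted difference of ctrl from sham was log2 0.05 in place of 0.63, and that of treat from ctrl 0.04 in place of -0.37. Clca5 belongs to a family of similar genes that lie close together on the chromosome in the RefSeq annotation, and how reads shared between such copies were counted is not given in the sources used here.

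Reg3g was at 1881, 3640 and 3919 scaled CPM in sham and at 22482, 13616 and 3408 in ctrl. Days 1 and 3 lay above every sham sample, day 7 lay among them, and the fitted difference was log2 2.05 (SE 0.65), a 4.13-fold change. Treat followed the same order of days, at 22773, 9599 and 5208 scaled CPM, and the fitted difference of treat from ctrl was log2 0.03 (SE 0.25). All 6 day 1 libraries, at 15395 to 29775 in ctrl and 19465 to 25838 in treat, exceeded the 6 day 7 libraries, at 1618 to 8226 and 1987 to 10979 scaled CPM. Reg3b, the near copy of Reg3g, had the same order in ctrl, at 9880, 7051 and 877 scaled CPM against 492, 468 and 600 in sham. How far reads could be shared between Reg3g and Reg3b was not tested.

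Pigr was at 263, 122 and 117 scaled CPM in sham and at 46.0, 147 and 144 in ctrl. Only day 1 lay below the sham samples, and treat day 1, at 55.4 scaled CPM, did too. Later treat samples were at 181 and 201 scaled CPM, and treat was above ctrl on each day by log2 0.27, 0.30 and 0.48 (fitted 0.34, SE 0.11). The libraries of the arms were apart on day 3, at 99.9 to 160 in ctrl and 175 to 187 scaled CPM in treat, and overlapped on days 1 and 7. Without library 3 of treat day 7 the fitted difference was 0.00.

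**Figure D2:**
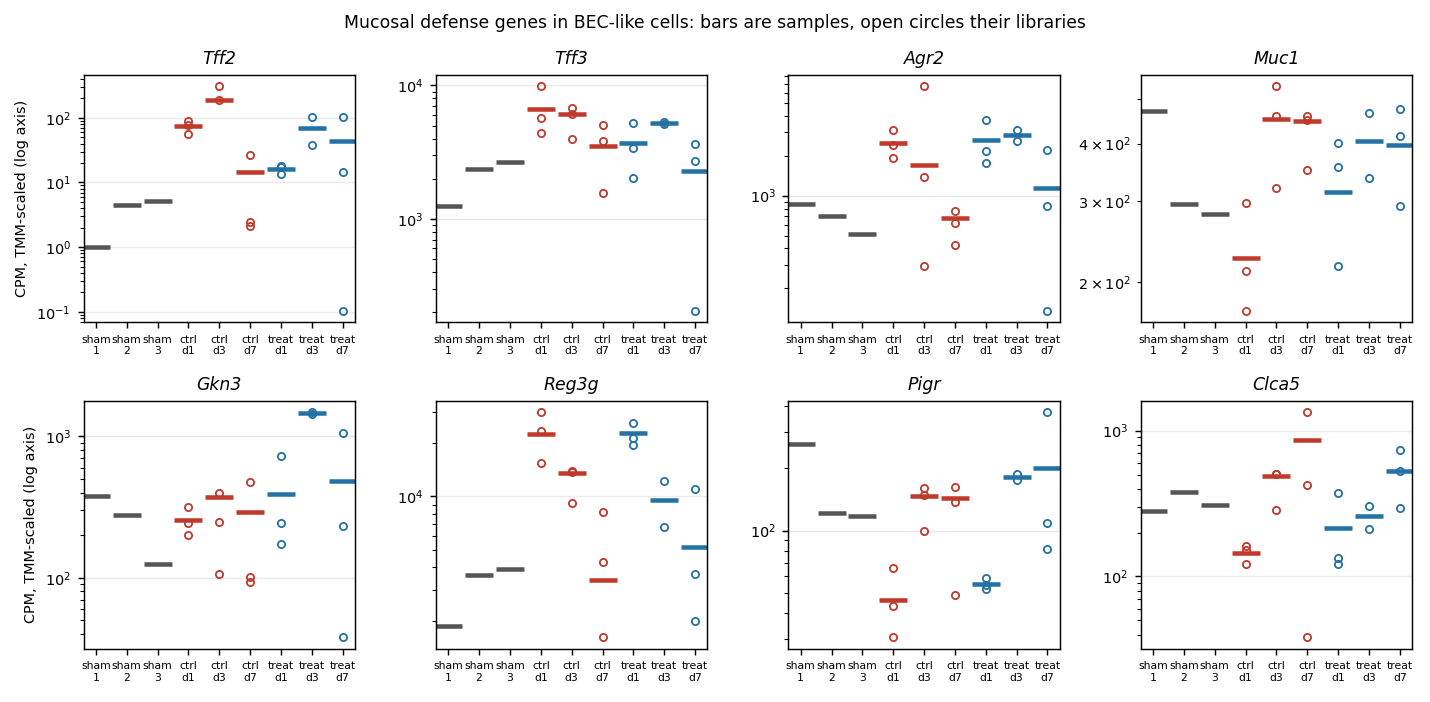
Scaled CPM (log axis) of each of the 8 genes in BEC-like cells, with a bar for each of the 9 samples and an open circle for each library of the LT samples, by group and day. Reg3g is at 22482 and 22773 scaled CPM on day 1 and Pigr at 46.0 and 55.4, and Gkn3 stands highest at treat day 3 (1471), while library 2 of ctrl day 3, with a Tff2 count of 0, is not drawn on the log axis.

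Of the 8 genes, 2 (Tff2 and Tff3) had ctrl samples all above the sham samples, beside 13.6% of 12395 genes tested, and 0 had them all below, beside 15.3% of genes. In treat, 3 genes (Agr2, Gkn3 and Pigr) were higher than in ctrl on each of the 3 days, beside 23.9% of 12965 genes, and 1 (Tff3) was lower on each, beside 18.5%. These same values entered the choice of the 8 genes, so nothing is read from the counts. How often the libraries of the arms lay apart over all genes was not determined. Libraries of 1 sample are also not replicates of an arm, and libraries 2 and 3 of ctrl day 3 held 22 and 42 BEC-like cells. Nothing is therefore read from the days on which the libraries lay apart for Tff2, Gkn3 and Pigr. Some orders of days recurred in both LT arms, which is not particular to these genes. Over 13274 genes, deviations of same-day samples from their arm means correlated at 0.56, -0.03 and 0.66 on days 1, 3 and 7. The share of all genes with such a recurrence was not determined. Reg3g was highest on day 1 and lowest on day 7 in both LT arms. Pigr, Clca5, Muc1 and Gkn3 were lowest on day 1 in both, and Tff3 and Agr2 on day 7. Tff2 and Gkn3 were highest on day 3 in both, and Clca5 on day 7.

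The day 1 levels of Reg3g and Pigr stood apart from sham within each BEC-like cluster. Reg3g in cluster 7 was at 3041, 4180 and 4165 CPM in sham against 23590 in ctrl day 1 and 22532 in treat day 1. In cluster 11 it was at 858, 2996 and 4011 CPM against 10703 and 15668, and in cluster 2 at 5599, 819 and 3576 CPM against 21326 and 19462. Pigr showed the opposite order in each cluster. It was at 299, 126 and 123 CPM in sham cluster 7 against 25.5 and 44.7 on day 1, at 308, 127 and 113 CPM in cluster 11 against 58.4 and 59.9, and at 583, 314 and 334 CPM in cluster 2 against 98.9 and 192. The cluster 2 values rest on few cells, 33, 75 and 34 in sham and 98 and 177 on day 1 in ctrl and treat.

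Other members differed among clusters within each sample. Gkn3 in cluster 11 was at 1.46 to 34.2 CPM, the lowest of the 3 clusters in 9 of 9 samples, where clusters 2 and 7 reached 5494 and 2042 CPM. Agr2 was likewise lowest in cluster 11 in 9 of 9 samples, at 98.0 to 442 CPM. Muc1 was lowest in cluster 7 in 9 of 9 samples, at 146 to 274 CPM, against 254 to 960 CPM in cluster 11. Pigr was highest in cluster 2 in 9 of 9 samples. The 8 genes and the pathway genes below were kept out of the genes that defined the clusters, but genes that vary with them were not, so these orders are descriptions.

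**Figure D3:**
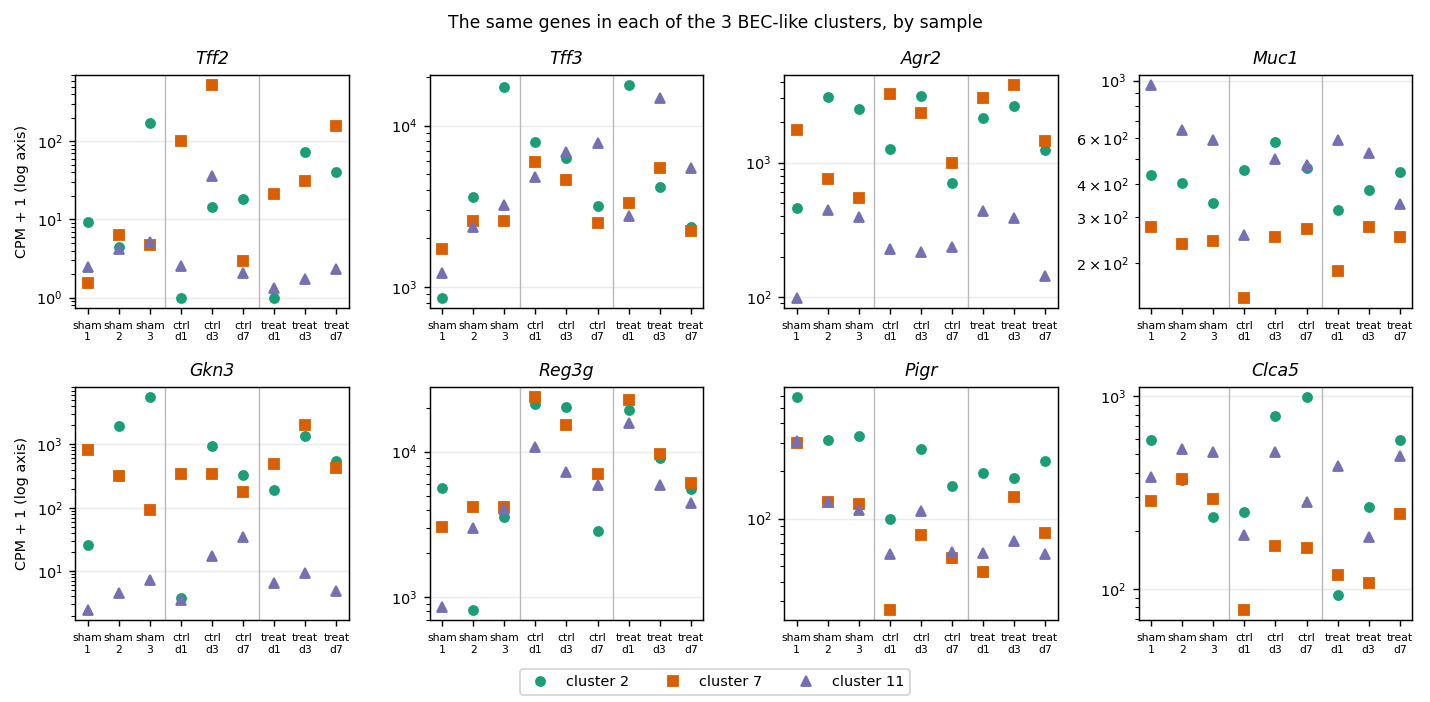
CPM (log axis) of each of the 8 genes within BEC-like clusters 2, 7 and 11, with 1 point of a cluster's colour and shape for each sample along the horizontal axis. Reg3g on day 1 stands above the sham samples in all 3 clusters and Pigr below them, and cluster 11 has the lowest Gkn3 (1.46 to 34.2 CPM) and Agr2 (98.0 to 442 CPM).

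The share of BEC-like cells with a UMI is given next, and free RNA can add to it. On ctrl day 1 Reg3g also had a UMI in 86.9% of fibroblast-like and 54.4% of EC-like cells. Its shares are thus not read as the part of cells that express it. Reg3g was detected in 30.0%, 62.1% and 70.9% of cells in sham, in 92.5%, 83.0% and 57.1% in ctrl and in 94.7%, 78.3% and 69.1% in treat. With each cell thinned to 2000 UMIs, which left out 85 to 1151 shallower cells per sample, the shares were 23.1%, 56.7% and 64.8%, then 84.5%, 76.9% and 50.9%, then 90.8%, 73.0% and 64.5%, in the same order. Pigr was detected in 65.6%, 46.3% and 53.2% of sham cells and in 28.9% and 33.3% of cells on day 1 in ctrl and treat. At 2000 UMIs those shares were 44.1%, 20.4% and 22.7% against 9.53% and 9.84%. Both day 1 samples were the deepest of their arms, at medians of 10089 and 11210 UMIs per cell, and the lower Pigr shares held at equal depth.

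Gkn3 was found in few cells at a high level. It was detected in 12.5%, 13.6% and 14.4% of sham cells, in 11.2%, 18.7% and 18.3% of ctrl cells and in 12.9%, 32.3% and 19.3% of treat cells. The 5% of BEC-like cells with the most Gkn3 held 76.7% to 97.6% of its UMIs in a sample. For Muc1, which was spread most evenly, that figure was 23.8% to 30.0%, for Clca5 30.0% to 46.4%, for Pigr 29.1% to 45.8%, for Tff3 41.5% to 64.2% and for Agr2 45.2% to 79.3%. For Reg3g it ran from 28.4% in treat day 1 to 83.2% in sham 1. Tff2 had a UMI in fewer than 5% of cells of each sample, so no such figure is given for it.

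BEC-like cells with at least 10 Gkn3 UMIs, called Gkn3-rich here, were a range of one gene's counts and not a cell type, and 18 to 176 cells per sample lay between 5 and 19 UMIs. They made up 2.84%, 1.34% and 0.912% of BEC-like cells in sham, 3.48%, 4.70% and 3.31% in ctrl and 4.34%, 13.1% and 4.53% in treat. Treat day 3 had the highest share, and both of its libraries were above all others (13.6% and 12.7%), beside 4.25%, 4.55% and 11.9% in the ctrl day 3 libraries, the last being 5 of 42 cells. The libraries of treat day 7 were at 2.47%, 0.216% and 10.9%. Gkn3-rich cells were deeper than the others, with medians of 10875 to 24612.5 against 3689 to 10753 UMIs. A cut that follows depth, of at least 3 Gkn3 UMIs and 1000 CPM in the cell, gave 13.4% in treat day 3 and 0.741% to 4.50% in the other samples.

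The Gkn3-rich cells also carried the folding chaperone and the trefoil factors. Agr2 was at 3995 to 18442 CPM in them and at 421 to 1310 CPM in other BEC-like cells, higher in 9 of 9 samples, at a median ratio of 12.2. Tff3 was higher in 9 of 9 samples, at 3974 to 19865 against 1277 to 5685 CPM. Tff2 was higher in 8 of 9, with the exception of sham 1, and Gkn3-rich cells held 71.1% to 94.4% of the Tff2 UMIs of the LT samples. Pigr was higher in 9 of 9 samples as well, at 87.6 to 609 against 34.9 to 289 CPM.

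Clca5 went the other way, at 9.12 to 236 CPM in Gkn3-rich cells and 128 to 917 CPM in the rest, lower in 9 of 9 samples. Reg3g was lower in 7 of 9 samples, and Muc1 was higher in 7 of 9, at 306 to 525 against 180 to 578 CPM, with a median ratio of 1.18. With the cut that follows depth the same counts were 9 of 9 for Agr2, Tff3 and Pigr higher, 9 of 9 for Clca5 lower, 7 of 9 for Reg3g lower and 8 of 9 for Muc1 higher. In correlations over single cells within a sample, which share depth and free RNA, Agr2 and Gkn3 had a Pearson r of 0.35 to 0.67, Tff3 and Agr2 of 0.14 to 0.46, and Reg3g and Pigr of -0.25 to 0.07.

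Other genes led the Gkn3-rich cells too, chosen after their values were seen, in the 7 samples with at least 20 such cells. Folds here are log2 ratios with 10 CPM added to both sides, which understates the change of genes at low CPM. Spdef, the transcription factor of mucus-secreting cells, was higher by a median of log2 3.11, and Muc6, the gel-forming mucin of gland cells, by log2 2.89 on that scale (medians of 66.6 against 0.533 CPM). The secretory factors Creb3l4 (log2 2.83) and Foxa3 (2.45) and the Agr2 homologue Agr3 (2.33) were higher as well. Genes outside mucus secretion led as well, among them Tesc (3.22), Mug1 (2.84) and the pancreatic genes Cela1 (2.49) and Gp2 (2.33). Over all 23836 genes, which include genes without a UMI in these cells, 1146 were higher and 1831 lower in all 7 samples. Of 32 mucus genes 13 were higher and 6 lower, and the mucus median was log2 0.16. The lower ones included the membrane mucin Muc13, by 2.98 on the log2 scale, the mucus protein Fcgbp, by 2.28, and Clca4, by 1.10. Of 30 antimicrobial genes 2 were higher and 7 lower in all 7 samples, and their median was log2 -0.09. Among these the antibacterial surface protein Lypd8 was lower by 4.64, while Lcn2 was higher by 1.53 (medians of 4708 against 1563 CPM). Summed goblet cell markers stood at 562 against 98.9 CPM and acinar markers at 982 against 171 CPM, values whose part in this pattern was not tested. The goblet markers did not move together. Clca1, at medians of 11.3 against 35.7 CPM, was lower in 6 of 7 samples, and Zg16, at 0.284 against 11.4 CPM, in 5 of 7. Among the acinar markers Cela1 alone had medians of 789 against 99.1 CPM.

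**Figure D4:**
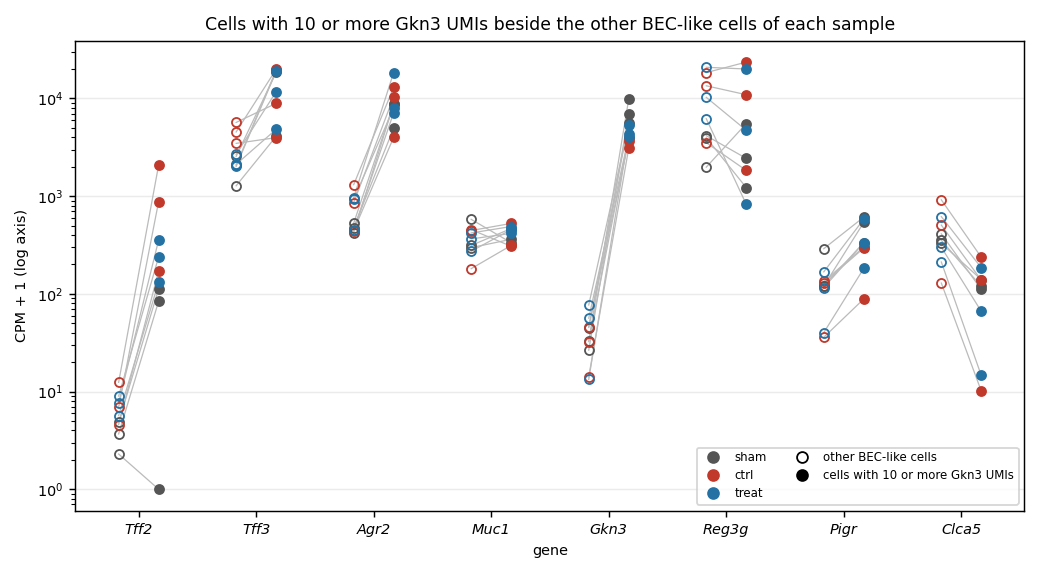
CPM + 1 (log axis) of each of the 8 genes in Gkn3-rich cells (filled) and in the other BEC-like cells (open) of the same sample, joined by a line and coloured by group. Agr2, Tff3 and Pigr are higher and Clca5 lower in Gkn3-rich cells in 9 of 9 samples, and Tff2 is higher in 8 of 9.

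The genes most like each member were named by Pearson r of log2(CPM + 1), as descriptions, first over the 42 clusters of all cell types, which share libraries and free RNA. Reg3g was closest to Reg3b (r = 0.979), and Muc1 to the epithelial genes Ckmt1 (0.967), Cldn3 (0.957) and Epcam (0.954). Tff3 was closest to Gjb1 (0.961) and Lgals4 (0.959), Agr2 to Sftpd (0.935) and Mmp7 (0.934), and Gkn3 to the water channel Aqp5 (0.965). Tff2 alone was closest to genes of pancreatic acinar cells, Gp2 (0.935) and Cela1 (0.917), followed by Zg16 (0.912), one of the goblet markers used here. Pigr was closest to the mucin glycosyltransferase Gcnt3 (0.948), and Clca5 to Lrrc26 (0.948) and Krt19 (0.941).

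Over the 18 libraries with at least 50 BEC-like cells, which share samples, depth and cluster makeup, the order was different. Agr2 was closest to genes of the secretory path, the nucleotide sugar transporter Slc35a3 (0.918), the transcription factor Creb3l1 (0.907) and the disulfide isomerase Pdia5 (0.898). Gkn3 was closest to the mucin glycosyltransferase Galnt7 (0.834), Slc35a1 (0.819) and Agr3 (0.803). Reg3g was again closest to Reg3b (0.975), with Twf1 (0.850) and Birc5 (0.848) next. Pigr was closest to Uvrag (0.918) and Cpd (0.918), Muc1 to Ctsa (0.914), Clca5 to Eva1c (0.917), Tff3 to Clta (0.802) and Tff2 to Tc2n (0.774). Among the members themselves, r was -0.75 between Reg3g and Pigr, 0.79 between Muc1 and Pigr, 0.74 between Agr2 and Gkn3 and 0.75 between Tff2 and Agr2.

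Further genes of the same pathways, which are not among the 8, were tested in BEC-like cells with edgeR's quasi-likelihood test and Benjamini-Hochberg adjustment over all genes tested, at 0.05. Between ctrl and sham 269 of 12395 genes passed (2.17%), 117 higher (0.944%) and 152 lower (1.23%) in ctrl. Of 29 mucus genes tested 2 passed as higher and 1 as lower, of 25 antimicrobial genes 4 as higher and 0 as lower, and of 26 genes of immunoglobulin transport and of the receptors that induce these defenses 1 as higher and 1 as lower. The list medians were log2 0.49, 0.85 and 0.20 beside -0.02 over all genes. The gene lists too were chosen with earlier results of these data known, so list counts and medians are not independent of these data. These calls were few and depended on single samples: the count over all genes was 1 without sham 2, 3 without sham 3, 9 without ctrl day 3 and 866 without ctrl day 7, and that over the lists was 1, 2, 2 and 18. Without cluster 7 the counts were 25 genes and 2 list genes, S100a8 and S100a9, so the calls of the other 7 list genes named below did not hold there.

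Among mucus genes Tff1, the gastric trefoil peptide which is the neighbour of Tff2 in the RefSeq annotation, rose in ctrl. It was at 712, 619 and 429 scaled CPM in sham and at 2825, 2269 and 1329 in ctrl (log2 1.85, SE 0.33, edgeR adjusted p = 0.0442). Clca4, a relative of Clca5, rose from 49.4, 40.5 and 37.0 to 79.0, 72.8 and 80.4 scaled CPM (edgeR adjusted p = 0.0423). Clca2, of the same family, fell from 34.6, 33.4 and 30.1 to 5.82, 4.59 and 11.2 scaled CPM (log2 -2.17, SE 0.32, edgeR adjusted p = 0.0284).

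Among antimicrobial genes Slpi, a secreted inhibitor of serine proteases with antibacterial action, rose from 38.1, 28.0 and 27.7 to 162, 238 and 156 scaled CPM (log2 2.57, SE 0.24, edgeR adjusted p = 0.0125). With the free-RNA profile subtracted the adjusted p of Slpi was 0.369, and that of the other called list genes still tested stayed between 0.0336 and 0.0466. Defb1, an epithelial defensin, had a count of 0 in all sham samples and 72 UMIs in ctrl, at least 11.9-fold higher over a floor of 3 counts for the sham group (edgeR adjusted p = 0.0408). S100a8 and S100a9, the subunits of calprotectin, rose by log2 5.93 (SE 0.51) and 5.96 (SE 0.67), with edgeR adjusted p of 0.0117 and 0.0178. Both are markers of neutrophils, whose 6 markers, these 2 included, summed to 3.50 to 11.5 CPM in sham and 284 to 377 CPM in ctrl within BEC-like cells. Neutrophil-like cells numbered 4 to 70 per sham sample and 2399 to 3495 per ctrl sample, and with the free-RNA profile subtracted neither S100a8 nor S100a9 passed the low-count filter in BEC-like cells. Lcn2 and Reg3b missed the threshold at edgeR adjusted p of 0.0530 and 0.0606.

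Among transport and receptor genes Rab11a, a GTPase of recycling endosomes, rose from 161, 146 and 142 to 318, 326 and 232 scaled CPM (log2 0.95, SE 0.18, edgeR adjusted p = 0.0483). Il1r1, a receptor of interleukin-1, fell from 6.02, 5.99 and 7.43 to 2.37, 2.36 and 2.48 scaled CPM (log2 -1.45, SE 0.24, edgeR adjusted p = 0.0369). Markers of stromal cells were also lower in the same sums, 6 fibroblast markers at 46.3 to 466 CPM in sham and 9.50 to 63.5 in ctrl, and 6 lymphatic EC markers at 25.5 to 50.3 and 4.63 to 9.89 CPM. Their part in the fall of Il1r1 was not tested beyond the free-RNA subtraction, under which its adjusted p was 0.0369.

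Between treat and ctrl, fitted with day as a block, edgeR called 0 of 12965 genes (0%), with 2034 at an unadjusted p under 0.05 and 396 called by DESeq2. By edgeR no list gene passed either, against 18 by DESeq2, 5 by edgeR with no low-count filter and 3 with libraries as samples, and the list medians were log2 -0.16 for mucus, -0.36 for antimicrobial and -0.31 for transport and receptor genes, beside 0.02 over all genes. On each of the 3 days 6 mucus genes were higher and 7 lower in treat, 3 antimicrobial genes higher and 10 lower, and 1 transport or receptor gene higher and 11 lower, of 29, 26 and 26 tested and beside 23.9% higher and 18.5% lower over all genes. The genes with the lowest p in each list were Muc13 (log2 -1.77, SE 0.24), Clca2 (0.81) and Clca4 (-0.58), then Lypd8 (-1.69, SE 0.14), Ido1 (-1.63) and Defb1 (0.0576, 0 and 0 scaled CPM in treat against 1.02, 1.06 and 0.721 in ctrl), then Ceacam1 (-1.40), Cd55 (-1.06) and Ifngr1 (-0.71), at edgeR adjusted p of 0.138 to 0.206. Lypd8 was at 8970, 6346 and 5335 scaled CPM in ctrl and at 2819, 2165 and 1513 in treat, lower on each day. It is a leading gene of cluster 11, which held 2030 of 3823, 327 of 723 and 184 of 2840 BEC-like cells in ctrl. In treat that cluster held 828 of 2486, 180 of 2620 and 82 of 4352. The part of this makeup in the Lypd8 difference was not tested.

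**Figure D5:**
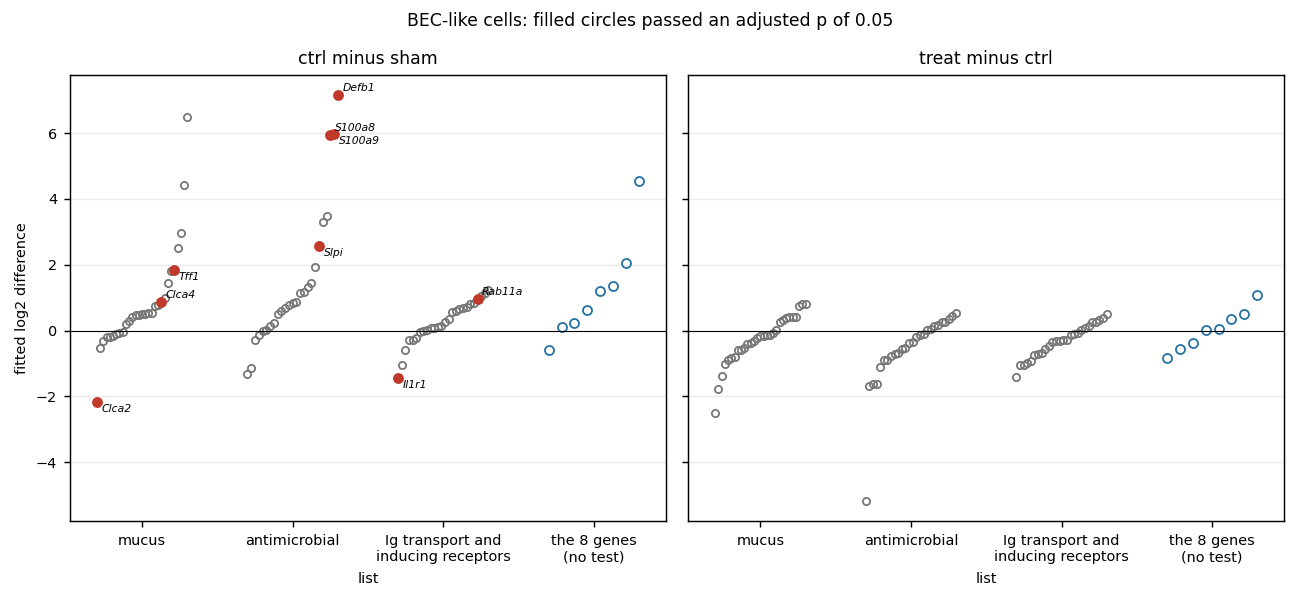
Fitted log2 difference (vertical axis) of each tested gene of the 3 pathway lists and of the 8 genes in BEC-like cells, ctrl minus sham on the left and treat minus ctrl on the right, in order of size, with filled circles for list genes past an adjusted p of 0.05. Calls are 3 of 29 mucus, 4 of 25 antimicrobial and 2 of 26 transport and receptor genes on the left and 0 on the right, and the fitted value of Defb1, at 0 in sham, depends on the prior count.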

How the data were processed

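The authors deposited raw UMI counts per gene and barcode for each library of bile duct cells (10x Genomics 3′ RNA-seq), with Cell Ranger 5.0.1 and Seurat 3.2.0 named in the submitters' processing notes and Cell Ranger 4 in the matrix headers. The genome build is not given in the sources used here. The members and gene lists were chosen with earlier results of these data known.

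Barcodes with 400 to 6000 genes, at most 25% mitochondrial and 3% hemoglobin UMIs were kept, and the top 7.5% of doublet scores in each library were removed (10742 in all), leaving 139637 cells. In ctrl day 3, libraries 2 and 3 lost 2479 and 3966 barcodes to the hemoglobin limit alone. Clusters came from Leiden clustering (leidenalg 0.10.2, resolution 0.9) without members or list genes, and took a name from marker lists. The rule for leaving clusters unnamed was settled after leading genes were seen.

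UMIs were summed per sample over BEC-like cells and fitted with edgeR 4.0.16 (R 4.3.3), with DESeq2 1.42.0 as an alternative, after filterByExpr and TMM (factors 0.834 to 1.19). The treat fit had day as a block, since titles give the day, and deviations of same-day samples correlated at 0.56, -0.03 and 0.66. Tested on simulated data, the ctrl fit recovered 81.0% of changes of log2 2. Named list genes were those past the threshold, at most 10 a list, or else the 3 with the lowest p. Intervals for counts cover counting error only.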

Additional observations from a re-analysis of the deposited data

How the results depend on the processing

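Leaving out single libraries and the second cut for Gkn3-rich cells were alternatives added after seeing the data. Ctrl against sham called 269 genes and 9 list genes. The counts were 448 and 16 with no low-count filter, 1301 and 29 with DESeq2, and 25 and 2 without the cluster that had Scgb1c1 among its leading genes. Genes called numbered 434 with libraries as samples and 493 with a gate on single cells. They numbered 523 with that gate and doublets kept, and 488 with the hemoglobin limit dropped as well. Leaving out 1 sample or library gave 1 to 866 genes and 1 to 18 list genes. Treat against ctrl called 0 genes and 0 list genes, against 62 and 5 with no filter, 88 and 3 with libraries as samples and 396 and 18 with DESeq2. Leaving out 1 sample or library gave 0 to 8 genes and 0 list genes, and the fit with no replicate block gave 0 and 0. The causes of these shifts were not tested.

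The fitted difference of ctrl from sham kept its sign in all 25 alternatives for Tff2, Tff3, Agr2, Reg3g and Pigr and changed it in 6 for Muc1, 4 for Gkn3 and 1 for Clca5. For Tff2 it was log2 3.47 with the gate on single cells and 1.29 with the gate and doublets kept. It was 1.23 with the hemoglobin limit dropped as well and 1.07 without the Scgb1c1 cluster. With 1 sample or library left out it was 3.50 to 5.05. With free RNA subtracted, Tff2 was at 0 in all sham samples. For Muc1 it was -0.60 without that cluster. The difference of treat from ctrl kept its sign in all 34 alternatives for Tff3, Agr2 and Gkn3 and changed it in 3 for Tff2, 8 for Muc1, 9 for Reg3g, 1 for Pigr and 1 for Clca5. For Pigr it was 0.14 without that cluster and 0.00 to 0.46 with 1 sample or library left out. Tff2 in sham rests on 4 to 102 UMIs, and ctrl day 3 on 723 cells.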
